A study of Bos taurus with 6 samples.

Results

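Phospholipid acyl remodelling enzymes exchange the fatty acid chains of membrane phospholipids. Their transcripts were compared between bovine fetal fibroblasts (bEFs) that carried the exogenous fat-1 gene and wild-type bEFs. The 10 genes were taken by symbol from the table of 17663 genes that the authors deposited: LPCAT1, LPCAT2, LPCAT3, LPCAT4, MBOAT1, MBOAT2, MBOAT7, AGPAT2, AGPAT3 and LPGAT1. All 10 were found in the table, and all 10 passed the filter on low counts. FT cells (libraries FT_1 to FT_3) were primary cultures from 3 fetuses that carried fat-1, and WT cells (libraries WT_1 to WT_3) were grown from 3 wild-type fetuses of the Luxi breed, with 1 library per fetus. All fetuses were 50 to 60 days old, and the cells were grown from what remained of the body without the head, limbs, organs and bones. The fat-1 gene of Caenorhabditis elegans encodes a desaturase that turns n-6 polyunsaturated fatty acids (PUFA) into n-3 PUFA. The promoter and the insertion site of the transgene, and the breed of the FT fetuses, are not given in the sources used here. Breed and genotype can therefore not be told apart.

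A phospholipid is first built with whatever acyl chains are at hand, and its middle chain is then removed by a phospholipase and replaced by an acyltransferase. This cycle of deacylation and reacylation is known as the Lands cycle, and it is a main route by which PUFA enter membranes. The acyltransferases belong to a pair of families. LPCAT1, LPCAT2, LPCAT4, AGPAT2, AGPAT3 and LPGAT1 belong to the AGPAT family, and LPCAT3, MBOAT1, MBOAT2 and MBOAT7 to the membrane-bound O-acyltransferase (MBOAT) family. AGPAT2 makes phosphatidic acid, a step in the first building of phospholipids rather than in the Lands cycle. Each enzyme prefers certain acyl chains and certain head groups, so that the balance between them bears on which chains a membrane holds. Enzyme activity and lipids were not analysed here.

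Total counts were 63366834 in FT_1, 48167642 in FT_2, 54204446 in FT_3, 69777641 in WT_1, 51310741 in WT_2 and 54271927 in WT_3. Library FT_1 stood apart from the other FT libraries. Across 13482 genes, the median absolute log2 difference was 0.394 between FT_1 and FT_2 and 0.402 between FT_1 and FT_3. It was 0.118 between FT_2 and FT_3 and 0.128 to 0.173 between WT libraries. The edgeR result of each of the 10 genes is therefore also given with FT_1 left out.

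Fibroblast and epithelial markers also set FT_1 apart. All 11 fibroblast markers were above 0 in every library. Their summed level in FPKM (fragments scaled to gene length and library total) came to 7040, 17081 and 16822 for FT_1, FT_2 and FT_3, and to 17861, 17307 and 17397 for the WT libraries. VIM had the highest mean over all 6 libraries, at 1244 for FT_1, 3850 for FT_2, 4171 for FT_3 and 7312 to 8178 for WT cells, although DCN was above it in FT_1 (1803) and FT_2 (4092). The collagen genes of the list were also lowest in FT_1, where COL1A1 had 914.1 against 2212 to 2689 in the other 5 libraries. COL1A2 had 1177 against 1933 to 2434, and COL3A1 433.0 against 1006 to 1322. POSTN went the other way, with 212.3 in FT_1 and 34.0 to 39.6 elsewhere, while THY1 (330.0 to 413.3) and FAP (52.1 to 78.3) were called neither in the full fit nor without FT_1.

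FT_2 and FT_3 also differed from WT cells, although their fibroblast sums were close. LUM had 550.9, 2759 and 2559 in FT_1, FT_2 and FT_3 and 1117 to 1224 in WT cells, and PDGFRB had 22.8, 96.7 and 107.1 and 49.9 to 58.1. DCN stood at 4092 and 3769 in FT_2 and FT_3, above 2054 to 2299 in WT cells. PDGFRA was the only fibroblast marker called in the full fit, higher in FT cells (140.6 to 217.7 against 87.0 to 99.7). Without FT_1, COL1A1, PDGFRA, PDGFRB, DCN and LUM were called higher and VIM lower. Opposite differences thus cancelled in the sum.

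All 6 epithelial markers had a value above 0 in FT_1, with a summed FPKM of 431.9, against 12.7 and 11.9 in FT_2 and FT_3 and 10.0, 7.83 and 13.9 in the WT libraries. KRT5 led in FT_1 with 171.5, and stood at 2.57 in FT_2 and 1.63 in FT_3. Next came KRT14 with 128.1, 1.76 and 1.11 and KRT8 with 84.1, 0.95 and 0.61, while KRT18 had 11.2, 0.34 and 0.18. These 4 keratins and EPCAM were listed at 0 in every WT library, and EPCAM reached 0.57 in FT_1 and was listed at 0 in FT_2 and FT_3. In edgeR no epithelial marker was called in the full fit, whereas the 4 keratins were called higher without FT_1. CDH1 was present in all 6 libraries, with 36.3 in FT_1 and 7.11 to 13.9 elsewhere, where it was the most abundant of the list.

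Of the 4 mesothelial markers in the table, all had a value above 0 in at least 1 library, and their summed FPKM was 205.9, 45.1 and 46.3 in FT cells and 2.35, 3.48 and 3.34 in WT cells. MSLN made up most of it, with 198.7, 44.9 and 46.2 in FT cells, and was called higher. WT1 was listed at 0 in every FT library and was at most 0.05 in WT cells, and KRT19 reached 6.26 in FT_1 and was at most 0.07 elsewhere. UPK3B had 1.03 in FT_1, but 0.1 and 0.09 in FT_2 and FT_3, below 0.2 to 0.25 in WT cells. The 7 adipocyte markers summed to 5.01, 19.2 and 20.1 in FT cells and to 154.1, 140.0 and 156.5 in WT cells. FABP4 led in WT cells but in no FT library, with 0.08, 4.67 and 5.95 in FT cells and 140.3, 127.9 and 143.4 in WT cells. ADIPOQ, which mature adipocytes secrete, was listed at 0 in all FT libraries and was at most 0.28 in WT cells. LPL had 1.47, 8.04 and 7.81 in FT cells and 5.99 to 8.42 in WT cells, and PLIN1 lay between 1.23 and 1.49 in all libraries. CIDEC was at most 0.08 in FT cells and 2.27 to 3.2 in WT cells. LEP had 0.03, 4.91 and 4.45 in FT cells and at most 0.09 in WT cells, and PPARG had 2.02, 0.3 and 0.37 against 1.11 to 1.61.

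The remaining markers were low. The 4 skeletal muscle markers in the table summed to 5.81, 4.61 and 3.78 in FT cells and to 1.2, 1.35 and 2.05 in WT cells. DES led in FT cells, with 5.74, 4.01 and 3.17 against 0.07, 0 and 0 in WT cells, and was called higher. MYF5 led in WT cells and went the other way, with 0.03, 0.59 and 0.61 in FT against 1.06, 1.31 and 1.93 in WT cells. It did not pass in the full fit, but was lower without FT_1 (adjusted p = 0.0129 in edgeR) and in limma on the FPKM values (0.0376). MYH3, at most 0.01 in FT and 0.04 to 0.12 in WT cells, was called lower, and ACTC1 was listed at 0 in every WT library. The 4 leukocyte markers in the table summed to 3.52 to 4.25 in FT cells and 6.72 to 8.06 in WT cells, led by CD14. CD68 was called lower, with 0.77 to 1.35 in FT against 2.57 to 3.02 in WT cells, while CSF1R and AIF1 were at most 0.19. The 5 endothelial markers summed to at most 1.52 in any library. PECAM1 was at most 0.76, VWF at most 0.37, TEK at most 0.38 and CDH5 at most 0.1, and KDR was listed at 0 in every FT library. The 4 chondrocyte markers summed to 2.29 in FT_1 and to at most 1.06 elsewhere, with SOX9 at 2.19 in FT_1. ACAN, the only chondrocyte marker called, was lower in FT cells (0.03, 0.14 and 0.19) than in WT cells (0.66, 0.71 and 0.56). COL2A1, listed at 0 in WT cells, and MATN1, listed at 0 in FT cells, were at most 0.07 and 0.03. Of the neuronal markers, TUBB3 was called lower, with 1.24 to 2.03 in FT against 2.74 to 3.74 in WT cells, and ELAVL3 was at most 0.04 and listed at 0 in WT cells. In such bulk samples, fewer cells of a type and less RNA per cell cannot be told apart. The part of these marker differences in the results below was not tested.

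**Figure D1:**
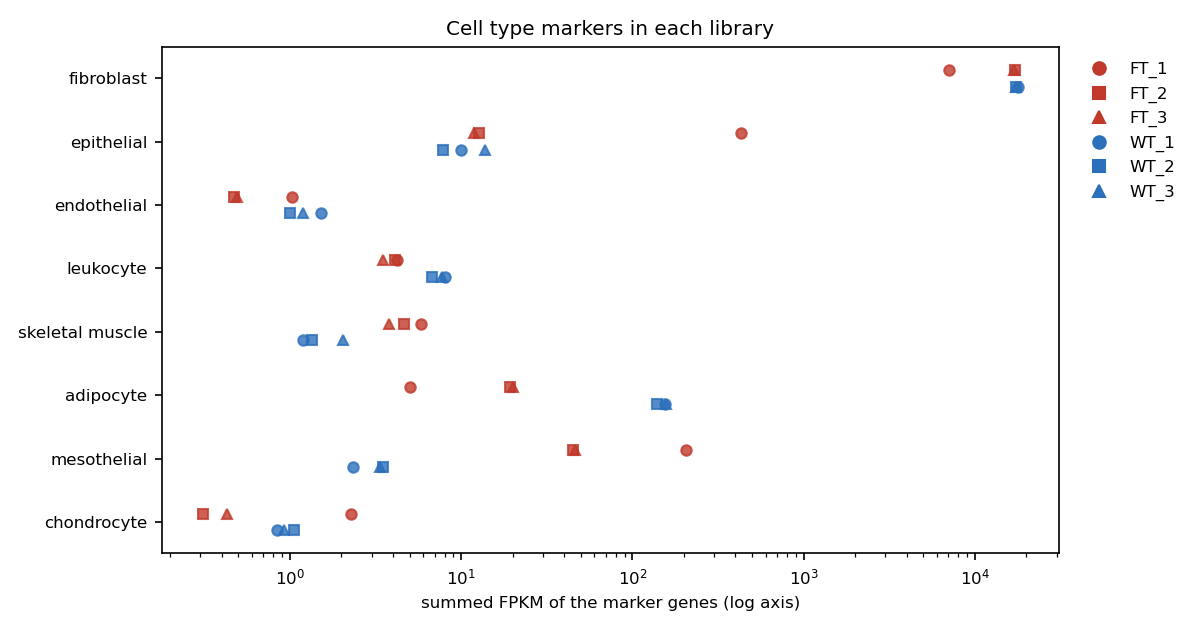
Summed FPKM (log axis) of 8 lists of cell type markers in each of the 6 libraries, FT in red and WT in blue, with a symbol for each replicate number. FT_1 lies at 431.9 for epithelial markers, against at most 13.9 in the other libraries, and at 7040 for fibroblast markers, against at least 16822.

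The 10 genes were all expressed, with group means from 1.75 to 53.7 FPKM. In WT cells the order of mean levels was MBOAT1 (36.2 FPKM), LPCAT1 (33.1), LPCAT3 (18.9), AGPAT2 (14.8), MBOAT7 (13.5), AGPAT3 (10.9), LPCAT4 (8.84), LPGAT1 (7.44), LPCAT2 (6.43) and MBOAT2 (4.31). Single WT values of MBOAT1 and LPCAT1, of AGPAT2 and MBOAT7, and of LPCAT4 and LPGAT1 overlapped, so that the order within these pairs did not exceed the spread between libraries. In FT cells MBOAT1 again had the highest mean (53.7 FPKM) and MBOAT2 the lowest (1.75). AGPAT2, the fourth in WT cells, stood at the second place in FT cells with 36.4 FPKM. The means of AGPAT2, LPCAT1, MBOAT7, LPCAT4, LPCAT3 and AGPAT3 followed each other with overlapping neighbours in FT cells, largely because FT_1 differed from FT_2 and FT_3.

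Of the 10 genes, AGPAT2, LPCAT4, MBOAT7, MBOAT1 and AGPAT3 were higher in FT cells and MBOAT2 was lower, at an adjusted p under 0.05 in edgeR. LPCAT1, LPCAT2, LPCAT3 and LPGAT1 did not pass. The 5 higher and 1 lower of 10 compare with 20.1% of all 13482 tested genes called higher (2714 genes) and 18.9% called lower (2547 genes). The median log2 fold change was 0.20 over the 10 genes and 0.03 over all tested genes, and 0.31 and -0.02 without FT_1. With FT_1 left out, LPCAT3 was also called higher and LPGAT1 also called lower, which gave 6 higher and 2 lower, while 30.6% and 31.5% of 13765 genes were called. The calls thus became more frequent over the whole table as well.

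In FPKM, every FT library lay above every WT library for AGPAT2, LPCAT4, MBOAT7, MBOAT1 and AGPAT3, and below for MBOAT2, LPCAT2 and LPGAT1. Over all tested genes these shares were 21.8% above and 36.9% below. An exact two-sided permutation test gave p = 0.10 for each of these 8 genes, the smallest p that 3 libraries against 3 allow, and p = 0.20 for LPCAT1 and p = 0.90 for LPCAT3. By the rule of the study's methods, an unadjusted p under 0.05 with a log2 fold change beyond 1 or -1, AGPAT2 and LPCAT4 were higher and MBOAT2 was lower. LPCAT4 met it through FT_1 only, with a log2 fold change of 0.73 without FT_1. That rule called 10.2% of all tested genes higher and 8.96% lower.

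The scaling between libraries mattered for the smaller differences. Scaling by library totals alone moved the median log2 fold change of all genes from 0.03 to -0.12 and called 2049 genes higher and 3394 lower, so that 37.6% of the calls were higher, against 51.6% before. LPGAT1 then passed as lower (adjusted p = 0.0455 in edgeR) and AGPAT3 no longer passed (0.0877). In limma on log2(FPKM + 1), where the median of all genes was also -0.12, 15.0% of 12247 genes were called higher and 29.2% lower. Of the 10 genes, limma called MBOAT1, MBOAT7 and AGPAT2 higher and MBOAT2 and LPGAT1 lower. The median log2 fold change of the 10 genes was 0.05 with library totals and -0.001 in limma.

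**Figure D2:**
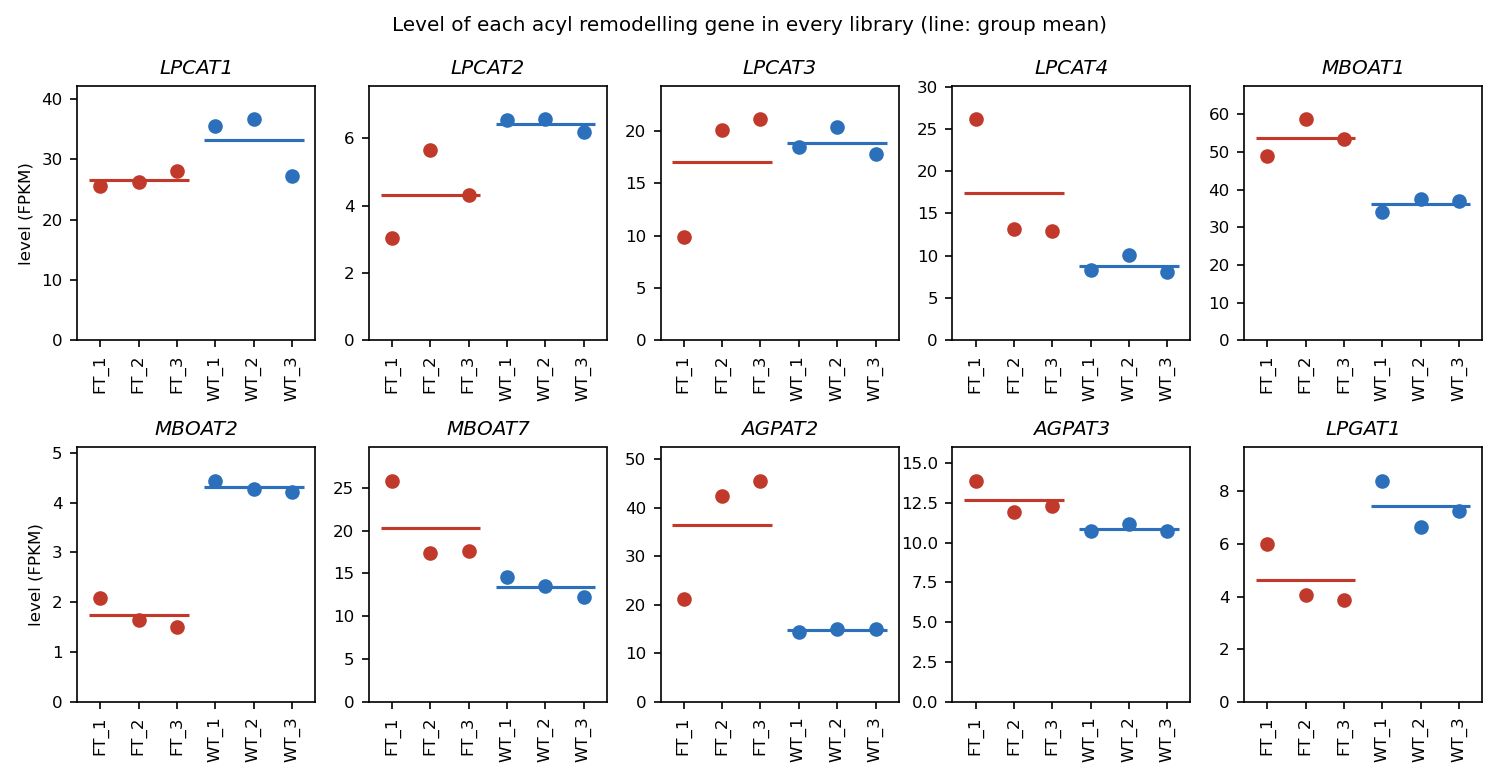
Level in FPKM (linear axis from 0) of the 10 acyl remodelling genes, 1 point per library with FT in red and WT in blue, and a line at each group mean. FT_1 lies apart from FT_2 and FT_3 for LPCAT3, LPCAT4, MBOAT7 and AGPAT2, whereas MBOAT1 is at 49.0 to 58.7 in FT and 34.1 to 37.6 in WT cells, and MBOAT2 at 1.51 to 2.09 in FT and 4.21 to 4.44 in WT cells.

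LPCAT3, MBOAT7 and AGPAT3 are the enzymes of this group best known for polyunsaturated chains. LPCAT3 places linoleoyl and arachidonoyl chains into phosphatidylcholine and phosphatidylethanolamine and is a known target of the liver X receptors. LPCAT3 (ENSBTAG00000013127, chromosome 5, 103451002 to 103487994 in the authors' table) measured 9.89 FPKM for FT_1, 20.0 for FT_2 and 21.1 for FT_3, next to 18.4, 20.4 and 17.8 for the WT libraries, with means of 17.0 ± 6.19 and 18.9 ± 1.36 (SD, n = 3). FT_1 was below all other libraries, FT_2 lay within the range of WT cells and FT_3 just above it. Its log2 fold change in edgeR was 0.01 (standard error 0.29, adjusted p = 0.973), with a 95% confidence interval from -0.70 to 0.73. Without FT_1 it was 0.30 (standard error 0.08, adjusted p = 0.00915). In limma on the FPKM values LPCAT3 did not pass, with 0.12 (adjusted p = 0.203) without FT_1 and -0.21 (adjusted p = 0.573) with all libraries, and its adjusted p ranged from 0.00915 to 0.990 over the 17 alternative fits. The sign turned with the scaling, to -0.14 with library totals and -0.012 with upper-quartile factors. LPCAT3 overlaps the gene EMG1 on the opposite strand by 1578 bases in the table. EMG1 averaged 18.1 FPKM in FT and 24.1 in WT cells. Whether reads were counted by strand is not stated, so that part of the reads of either gene is uncertain.

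MBOAT7 attaches arachidonoyl chains to lysophosphatidylinositol. MBOAT7 (ENSBTAG00000015908, chromosome 18, 63213542 to 63227739) had an FPKM of 25.8, 17.4 and 17.6 in FT_1, FT_2 and FT_3 and 14.6, 13.6 and 12.3 in the WT libraries, with means of 20.3 ± 4.802 and 13.5 ± 1.14 (SD, n = 3). All FT libraries lay above all WT libraries, and FT_1 lay highest. The rise was 0.75 on the log2 scale in edgeR (standard error 0.17, adjusted p = 0.0167), and 0.55 without FT_1 (standard error 0.09, adjusted p = 4.41e-04). The call was lost without WT_1 (adjusted p = 0.0523), WT_2 (0.0661) or WT_3 (0.0680), when 2 WT libraries stood against 3 FT libraries that included FT_1. Over the 17 alternative fits its adjusted p was 4.41e-04 to 0.0680.

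AGPAT3 acylates lysophosphatidic acid and is known for chains such as docosahexaenoyl, an n-3 PUFA. AGPAT3 (ENSBTAG00000020456, chromosome 1, 143941826 to 144025795) stood at 13.9, 11.95 and 12.3 FPKM in FT against 10.7, 11.2 and 10.7 in WT cells, with means of 12.7 ± 1.04 and 10.9 ± 0.248 (SD, n = 3). The groups did not overlap, but the difference was the smallest among the called members. It came to 0.38 in log2 units (standard error 0.08, adjusted p = 0.0155 in edgeR) and to 0.33 without FT_1 (standard error 0.08, adjusted p = 0.00734). In limma the difference was 0.21 and did not pass (adjusted p = 0.0897), nor did it pass in edgeR without WT_1 (0.0727), WT_2 (0.0512) or WT_3 (0.0595). Its adjusted p over the alternatives was 0.00325 to 0.108.

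MBOAT1 and MBOAT2 are close relatives that are known for placing oleoyl, a monounsaturated chain, into phospholipids, MBOAT1 mainly onto lysophosphatidylserine and lysophosphatidylethanolamine and MBOAT2 onto lysophosphatidylethanolamine and lysophosphatidylcholine. MBOAT1 rose and MBOAT2 fell in FT cells. MBOAT1 (ENSBTAG00000016519, chromosome 23, 37723596 to 37834307) had an FPKM of 49.0, 58.7 and 53.4 in FT_1, FT_2 and FT_3 and 34.1, 37.6 and 36.9 in the WT libraries, with means of 53.7 ± 4.87 and 36.2 ± 1.86 (SD, n = 3). Its rise was 0.73 in log2 units (standard error 0.10, adjusted p = 0.00338 in edgeR) and 0.80 without FT_1 (standard error 0.07, adjusted p = 8.48e-06). In all 17 alternative fits MBOAT1 was called higher, with a log2 fold change between 0.55 and 0.80 and an adjusted p between 3.71e-08 and 0.0243.

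MBOAT2 (ENSBTAG00000008160, chromosome 11, 88363056 to 88464714) stood at 2.09, 1.64 and 1.51 FPKM in FT against 4.44, 4.27 and 4.21 in WT cells, with means of 1.75 ± 0.304 and 4.31 ± 0.119 (SD, n = 3). Its counts were the lowest of the 10 genes, from 139 in FT_2 to 541 in WT_1. The level fell by 1.14 in log2 units (standard error 0.18, adjusted p = 0.00505 in edgeR), and by 1.28 without FT_1 (standard error 0.15, adjusted p = 5.98e-05). MBOAT2 was likewise called lower in all 17 alternative fits, with a log2 fold change between -1.29 and -0.96 and an adjusted p between 5.98e-07 and 0.0318.

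The ratio of MBOAT1 to MBOAT2 within a library does not depend on the scaling between libraries. It was 23.4, 35.8 and 35.3 in FT_1, FT_2 and FT_3 and 7.67, 8.80 and 8.75 in the WT libraries, or 31.5 ± 7.01 (SD, n = 3) against 8.41 ± 0.64. This ratio, and those of AGPAT2 to AGPAT3 and LPCAT4 to LPCAT1 given further on, were chosen after the values had been seen and were not tested.

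AGPAT2 converts lysophosphatidic acid to phosphatidic acid, the precursor of phospholipids and triacylglycerol, and is known as a gene needed by adipocytes. AGPAT2 (ENSBTAG00000025161, chromosome 11, 104087838 to 104100209) measured 21.3 FPKM for FT_1, 42.5 for FT_2 and 45.6 for FT_3, next to 14.3, 15.0 and 15.0 for the WT libraries, with means of 36.4 ± 13.2 and 14.8 ± 0.377 (SD, n = 3). FT_1 was above every WT library but well below FT_2 and FT_3. AGPAT2 had the largest log2 fold change of the 10 genes, 1.47 (standard error 0.30, adjusted p = 0.0117 in edgeR), and 1.75 without FT_1 (standard error 0.08, adjusted p = 1.51e-07). It missed the threshold without WT_1 (adjusted p = 0.0552) and without WT_2 (0.0540), and passed in limma (1.17, adjusted p = 0.0184), with a range of the adjusted p from 1.51e-07 to 0.0552 over the alternatives. The ratio of AGPAT2 to AGPAT3 was 1.53, 3.56 and 3.71 in FT cells and 1.34, 1.34 and 1.40 in WT cells. The adipocyte marker sum, mostly FABP4 in WT cells, was lower in FT cells, yet within FT cells it was lowest in FT_1, as AGPAT2 was. Of these markers FABP4 and CIDEC were called lower and LEP higher in FT cells, and PPARG was highest in FT_1. The part of adipocyte-like cells in the level of AGPAT2 was not tested.

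LPCAT1, LPCAT2 and LPCAT4 act on lysophospholipids made from phosphatidylcholine or phosphatidylethanolamine. LPCAT4 (ENSBTAG00000020040, chromosome 10, 28278976 to 28287059) measured 26.2 FPKM for FT_1, 13.2 for FT_2 and 12.9 for FT_3, next to 8.30, 10.1 and 8.13 for the WT libraries, with means of 17.4 ± 7.59 and 8.84 ± 1.08 (SD, n = 3). FT_1 was at about the sum of FT_2 and FT_3, and all 3 lay above WT cells. The rise was 1.13 in log2 units (standard error 0.29, adjusted p = 0.0268 in edgeR), and 0.73 without FT_1 (standard error 0.10, adjusted p = 1.98e-04). It did not pass in limma (0.83, adjusted p = 0.0517), nor in edgeR without WT_1 (0.0995), WT_2 (0.0713) or WT_3 (0.0967). The alternatives gave adjusted p values from 1.98e-04 to 0.0995.

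LPCAT1 is known for saturated chains, as in the surfactant lipid of the lung. LPCAT1 (ENSBTAG00000000944, chromosome 20, 71006062 to 71048066) stood at 25.6, 26.2 and 28.0 FPKM in FT against 35.4, 36.6 and 27.3 in WT cells, with means of 26.6 ± 1.24 and 33.1 ± 5.09 (SD, n = 3). WT_3 lay within the range of the FT libraries. Its difference of -0.16 on the log2 scale did not pass (standard error 0.13, adjusted p = 0.379 in edgeR, 95% confidence interval from -0.48 to 0.16), and neither did that of -0.12 without FT_1 (adjusted p = 0.395, range over the alternatives 0.0860 to 0.705). The ratio of LPCAT4 to LPCAT1 was 1.02, 0.502 and 0.460 in FT cells and 0.234, 0.275 and 0.298 in WT cells.

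LPCAT2 also makes platelet-activating factor. LPCAT2 (ENSBTAG00000019272, chromosome 18, 23786207 to 23854907) stood at 3.04, 5.64 and 4.31 FPKM in FT against 6.54, 6.57 and 6.19 in WT cells, with means of 4.33 and 6.43 (n = 3). All FT values were below the WT values and spread more widely, with a coefficient of variation of 30.0% against 3.28%. The difference of -0.41 on the log2 scale did not pass (standard error 0.23, adjusted p = 0.211 in edgeR), nor did that of -0.20 without FT_1 (adjusted p = 0.184). In limma without FT_1, an alternative added after the data were seen, it was -0.32 with an adjusted p of 0.0317, the lowest of the alternatives (range up to 0.364).

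LPGAT1 acylates lysophosphatidylglycerol and lysophosphatidylethanolamine. LPGAT1 (ENSBTAG00000005137, chromosome 16, 71591831 to 71713585) stood at 5.99, 4.08 and 3.88 FPKM in FT against 8.41, 6.65 and 7.25 in WT cells, with means of 4.65 ± 1.17 and 7.44 ± 0.895 (SD, n = 3). Every FT library was below every WT library, and FT_1 was nearest to WT cells. The difference was -0.52 in log2 units (standard error 0.20, adjusted p = 0.0818 in edgeR) and did not pass. Without FT_1 it was -0.73 (standard error 0.13, adjusted p = 8.11e-04), and in limma with all libraries -0.59 (standard error 0.17, adjusted p = 0.0317). The range of the adjusted p over the alternatives was 4.73e-04 to 0.235.

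**Figure D3:**
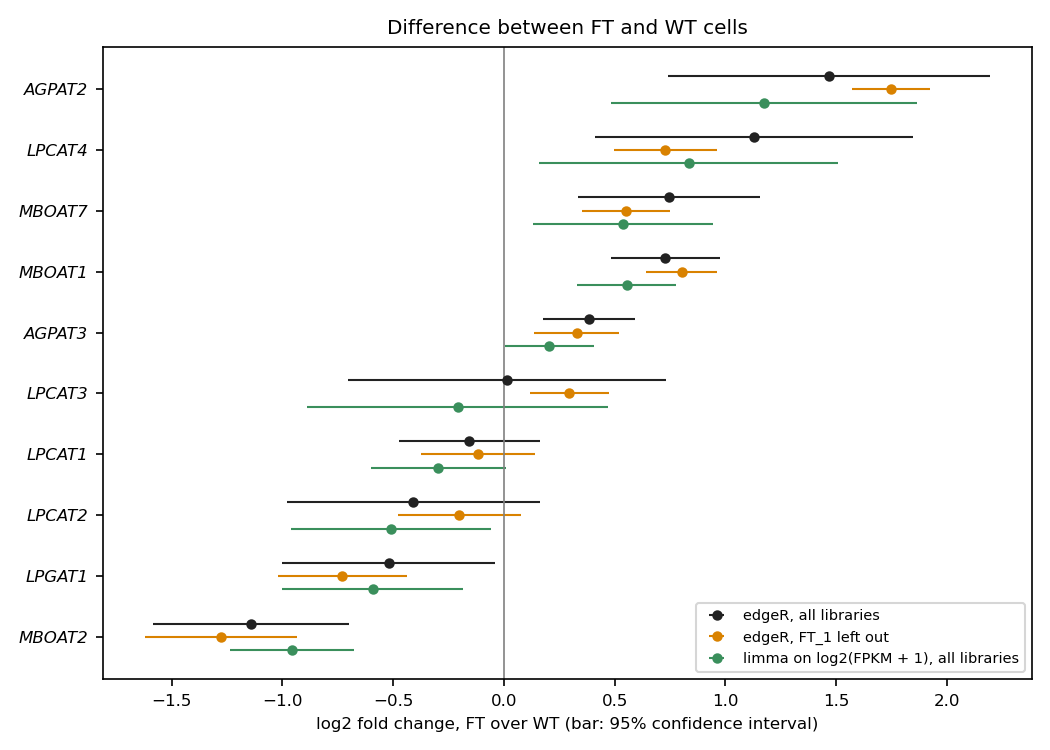
Log2 fold change of FT over WT for each of the 10 genes, with 95% confidence intervals, from edgeR with all libraries (black), edgeR with FT_1 left out (orange) and limma on log2(FPKM + 1) (green). AGPAT2 lies highest and MBOAT2 lowest in each fit, and LPCAT3 lies on different sides of 0 (0.01, 0.30 and -0.21).

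FT_1 differed from the other FT libraries in a gene-specific way. Relative to the mean of FT_2 and FT_3, its level was lower for LPCAT3 (log2 ratio -1.06), AGPAT2 (-1.05) and LPCAT2 (-0.71), and higher for LPCAT4 (1.007), LPGAT1 (0.59), MBOAT7 (0.56) and MBOAT2 (0.41). The ratio was 0.20 for AGPAT3, -0.08 for LPCAT1 and -0.19 for MBOAT1. Over 12760 genes with a value above 0 in all libraries, the median absolute log2 ratio was 0.37 for this comparison and 0.113 for FT_2 over FT_3. The median absolute log2 ratio of the 10 genes was 0.575. Of them 7 lay above and 3 below the median over all genes, which by definition splits all genes evenly. Whether the 10 genes depart more than others was not tested. FT_1 was also the library with the high keratin levels, and whether the 2 are linked was not tested.

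The 10 genes together summed to 182.7, 201.3 and 200.5 FPKM in FT cells and 155.2, 161.8 and 145.7 in WT cells. MBOAT1 made up 27.5 ± 1.42% (SD, n = 3) of the sum in FT cells and 23.5 ± 1.69% in WT cells. The share of AGPAT2 was 11.6%, 21.1% and 22.7% in FT_1, FT_2 and FT_3, and 9.24%, 9.24% and 10.3% in WT cells. LPCAT1 made up 13.7 ± 0.55% in FT cells and 21.4 ± 2.32% in WT cells, although its own level did not pass the test. A share can fall because other genes of the sum rise.

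The enzymes known for polyunsaturated chains had a higher summed level but a lower share in FT cells. LPCAT3, MBOAT7 and AGPAT3 summed to 49.62, 49.4 and 51.02 FPKM in FT_1, FT_2 and FT_3, and 43.7, 45.1 and 40.81 in the WT libraries. Together they held 27.2%, 24.5% and 25.4% of the sum in FT_1, FT_2 and FT_3, and 28.2%, 27.9% and 28.0% in WT cells. The sum of all 10 genes was higher by more, in FT_1 most of all through LPCAT4 and in FT_2 and FT_3 through AGPAT2. Of the sum of the 10 genes LPCAT3 held 5.41%, 9.95% and 10.5% in FT_1, FT_2 and FT_3, and 12.2 ± 0.374% in WT cells, and that of MBOAT7 was 14.2% in FT_1 and 8.37% to 9.39% in the other libraries. MBOAT2 held 0.904 ± 0.21% in FT cells and 2.80 ± 0.137% in WT cells. These shares are a description and were not tested.

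**Figure D4:**
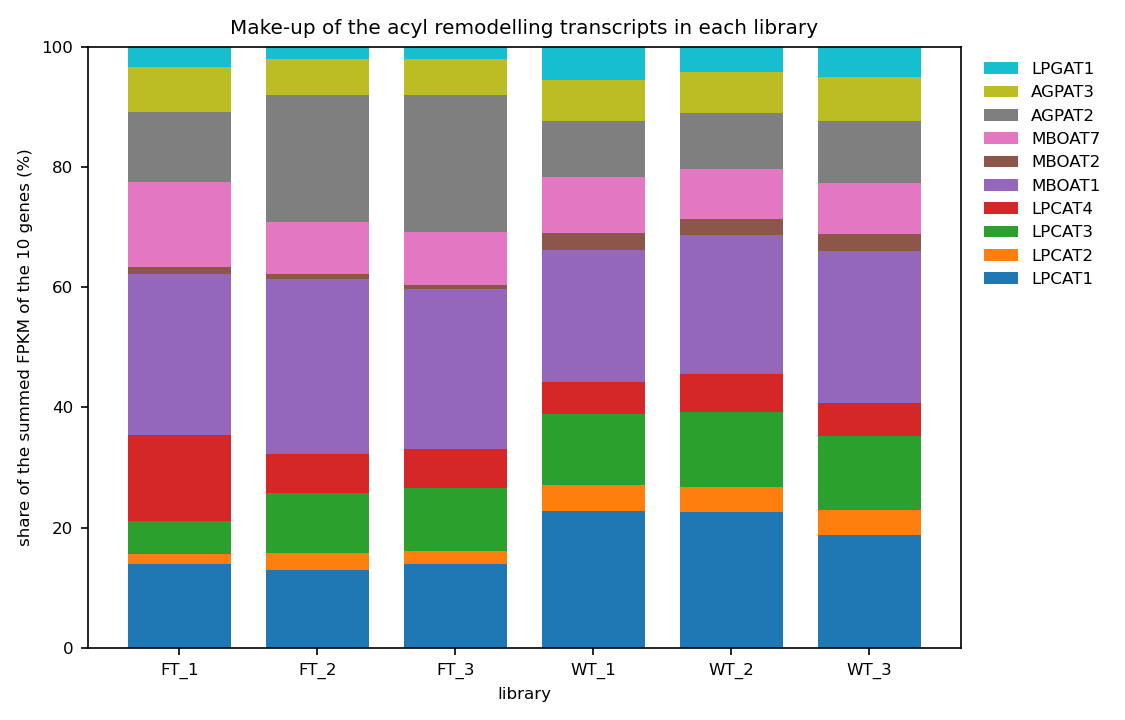
Share (%) of each of the 10 genes in their summed FPKM, 1 stacked bar per library from 0 to 100%. AGPAT2 takes 21.1% and 22.7% in FT_2 and FT_3 and 9.24% to 11.6% in the other 4 libraries, and LPCAT1 takes at most 14.0% in FT cells and at least 18.7% in WT cells.

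Genes of 6 related lists were read from the same edgeR fit. Of 78 genes found in the table, 72 were tested, and 18 were higher (25.0%) and 14 lower (19.4%) in FT cells, near the 20.1% and 18.9% of all tested genes. Their median log2 fold change was 0.23. Without FT_1, 73 were tested, and 31 were higher (42.5%) and 22 lower (30.1%), next to 30.6% and 31.5% of all genes in that fit. The calls depended on the libraries, with 7 to 31 higher and 9 to 22 lower when a library was left out. Called genes given beyond the rule for named genes (DDHD2, AGPAT1, DGAT1, CDIPT, TAMM41, GNPAT, PAFAH1B3, PAFAH2, NR1H3 and SREBF1) were chosen after their values were seen.

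Phospholipases and lysophospholipases remove the chains that the acyltransferases replace. Of 15 tested, 4 were higher and 1 lower, where 20.1% and 18.9% of all tested genes were called. The median log2 fold change of this list was 0.25. LYPLA2, a lysophospholipase and acyl-protein thioesterase, stood at 19.1, 18.8 and 20.3 FPKM in FT against 14.8, 15.0 and 14.6 in WT cells. It rose by 0.55 in log2 units (standard error 0.07, adjusted p = 0.00294 in edgeR). PNPLA6, a lysophospholipase of the endoplasmic reticulum, rose by 0.48 (adjusted p = 0.00469). PLBD2, a lysosomal phospholipase B-like protein, was the most abundant of the list, with 161.5 ± 22.1 FPKM in FT against 132.3 ± 1.98 in WT cells (log2 fold change 0.45, adjusted p = 0.0364), and DDHD2 completed the rises (0.25, adjusted p = 0.0456). The secreted phospholipase gene PLA2G12A fell by 0.29 (adjusted p = 0.0488). The calls of PLBD2, DDHD2 and PLA2G12A held in 1 of 6 fits with a library left out, that without FT_1, and were lost without FT_2, FT_3, WT_1, WT_2 or WT_3, with an adjusted p of up to 0.126, 0.163 and 0.165. PLBD2 and DDHD2 were also lost in limma (0.103 and 0.373), which left LYPLA2 and PNPLA6 as the rises of the list. Without FT_1, 9 of 16 tested genes of the list were higher and 4 lower, next to 30.6% and 31.5% of all genes in that fit. PLA2G2A, among the lower, was tested in that fit but not in the full fit.

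Long-chain acyl-CoA synthetases and acyl-CoA carriers supply the activated chains. The synthetase gene ACSL4 was on this list but had no entry in the table, and was not analysed here. None of the 8 tested genes was higher and 2 were lower in edgeR, next to 20.1% and 18.9% of all tested genes. Both of the lower genes bind acyl-CoA rather than make it. The median log2 fold change of the list was 0.25 all the same, and -0.06 without FT_1. DBI, the acyl-CoA binding protein, stood at 73.1, 83.9 and 69.2 FPKM in FT against 108.1, 126.3 and 112.4 in WT cells. It fell by 0.46 in log2 units (standard error 0.11, adjusted p = 0.0194 in edgeR). ACBD3, a Golgi protein with an acyl-CoA binding domain, fell by 0.35 (standard error 0.07, adjusted p = 0.0142). DBI missed the threshold without FT_3, WT_2 or WT_3 (adjusted p up to 0.0696), and ACBD3 without FT_3 or WT_1 (up to 0.0687). Without FT_1, 2 of the 8 genes were higher and 3 lower, where 30.6% and 31.5% of all genes were called.

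Among 12 tested genes of the list of other glycerolipid acyltransferases, 4 were higher and 2 lower, against 20.1% and 18.9% of all tested genes. The median of the list was 0.24. The list also holds genes of other kinds, such as SOAT1. Close relatives of the AGPAT genes went different ways. AGPAT4 stood at 3.95, 4.08 and 3.84 FPKM in FT against 2.20, 2.14 and 2.40 in WT cells, and rose by 0.98 in log2 units (standard error 0.13, adjusted p = 0.00276 in edgeR). AGPAT5 stood at 3.86, 2.75 and 3.58 in FT against 9.62, 9.20 and 7.85 in WT cells, and fell by 1.23 (standard error 0.18, adjusted p = 0.00372). LCLAT1, which remodels the mitochondrial lipid cardiolipin, rose by 0.75 (standard error 0.14, adjusted p = 0.00953). DGAT1, which makes triacylglycerol, rose by 0.78 (adjusted p = 0.0102) and AGPAT1 by 0.31 (adjusted p = 0.0179). SOAT1, the cholesterol acyltransferase and first of the list by the mean over all 6 libraries, though not in FT cells alone, fell by 0.43 (adjusted p = 0.0388) and missed the threshold without FT_2, WT_1, WT_2 or WT_3 (adjusted p up to 0.133). AGPAT1 missed it without the same libraries (up to 0.0819) and in limma (0.145). AGPAT4, AGPAT5, LCLAT1 and DGAT1 passed with any 1 library left out. Without FT_1, 6 of 12 tested genes were higher and 4 lower, against 30.6% and 31.5% of all genes in that fit.

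Head group synthesis had 4 genes higher and 3 lower of 20 tested, where 20.1% and 18.9% of all tested genes were called. The median of the list was 0.04, and 0.13 without FT_1. PTDSS2, a phosphatidylserine synthase, stood at 12.3, 7.69 and 7.53 FPKM in FT against 4.02, 4.31 and 5.43 in WT cells, and rose by 1.154 (standard error 0.23, adjusted p = 0.0111 in edgeR). PTDSS1, the other phosphatidylserine synthase and the most abundant gene of the list, rose by 0.44 (adjusted p = 0.0209). The phosphatidic acid phosphatase gene LPIN2 rose by 0.42 (adjusted p = 0.0153) and the phosphatidylinositol synthase gene CDIPT by 0.31 (adjusted p = 0.0368). PTDSS2, PTDSS1 and LPIN2 each missed the threshold without WT_1 or WT_2, with an adjusted p of up to 0.0539, 0.0863 and 0.0737. CDIPT, whose groups overlapped in FPKM, was lost when any library other than FT_1 was left out (up to 0.106). No gene of the list was thus higher without WT_1 or without WT_2, and in limma PTDSS2 alone was higher. The share of all tested genes called higher also fell, to 11% without WT_1, 11.6% without WT_2 and 15.0% in limma. CEPT1, which completes phosphatidylcholine and phosphatidylethanolamine, stood at 12.9, 12.95 and 11.7 FPKM in FT against 21.99, 22.15 and 21.9 in WT cells, and fell by 0.66 (standard error 0.07, adjusted p = 0.00176). The CDP-diacylglycerol synthase genes CDS1 and TAMM41 were lower, at a log2 fold change of -2.39 (adjusted p = 0.00372) and -0.9988 (adjusted p = 0.00462), CDS1 from a low level of 1.29 ± 0.435 FPKM in WT cells to 0.217 ± 0.0153 in FT cells. These 3 falls passed with any 1 library left out. Without FT_1, 7 of 20 tested genes were higher and 5 lower, where 30.6% and 31.5% of all genes were called.

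Ether lipids carry an alkyl or vinyl chain and are started in peroxisomes. Of 11 tested genes of this list 2 were higher and 5 lower, where 20.1% and 18.9% of all tested genes were called. The median of the list was -0.02. AGPS, the peroxisomal alkyl synthase, stood at 13.4, 13.9 and 13.5 FPKM in FT against 24.2, 23.4 and 22.02 in WT cells, and fell by 0.61 in log2 units (standard error 0.07, adjusted p = 0.00215 in edgeR). PEX7, the receptor that imports it, fell by 0.74 (standard error 0.09, adjusted p = 0.00252), and GNPAT, which acts just before it, by 0.52 (adjusted p = 0.00519). The platelet-activating factor hydrolase genes PAFAH2 and PAFAH1B3 fell by 1.004 (adjusted p = 0.00450) and 0.35 (adjusted p = 0.0307), the latter lost without FT_3, WT_1, WT_2 or WT_3 (adjusted p up to 0.103). PEDS1 (TMEM189 in the table), which introduces the vinyl bond of plasmalogens, stood at 23.7, 28.4 and 28.6 FPKM in FT against 16.2, 16.4 and 16.2 in WT cells, and rose by 0.88 (standard error 0.11, adjusted p = 0.00222). TMEM86A, a lysoplasmalogenase, rose by 0.83 (adjusted p = 0.0159), which was lost without WT_1, WT_2 or WT_3 (adjusted p up to 0.0682). PAFAH1B2, the most abundant of the list, had a log2 fold change of 0.09 and did not pass (adjusted p = 0.681), and its direction turned in limma, to -0.25 (adjusted p = 0.0152) when FT_1 was left out there. Without FT_1, 2 of the 11 genes were higher and 5 lower, as in the full fit, but the median of the list was -0.31. Of all genes in the fit without FT_1, 30.6% were higher and 31.5% lower.

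Liver X receptors are sterol-sensing transcription factors, and LPCAT3 is among their known targets. Of the 6 tested genes of this list 4 were higher and 1 lower, against 20.1% and 18.9% of all tested genes. The median of the list was 0.44. RXRA did not pass (log2 fold change 0.24, adjusted p = 0.309 in edgeR). The receptor genes NR1H2 and NR1H3 rose by 0.48 (adjusted p = 0.00351) and 0.39 (adjusted p = 0.0387) in edgeR, with standard errors of 0.07 and 0.11. NR1H2 was the most abundant gene of the list, with 33.8, 33.3 and 31.6 FPKM in FT cells and 25.5, 26.4 and 27.2 in WT cells. The targets did not move together. MYLIP, a ubiquitin ligase of the LDL receptor, stood at 5.23, 15.0 and 14.2 FPKM in FT against 3.55, 3.43 and 3.84 in WT cells (log2 fold change 1.83, adjusted p = 0.0156). SREBF1, a regulator of fatty acid synthesis, stood at 9.59, 23.4 and 24.1 in FT against 8.81, 7.97 and 9.06 in WT cells (1.31, adjusted p = 0.0317). In both, as in AGPAT2, FT_1 lay between WT cells and the other FT libraries. ABCA1, which exports cholesterol, stood at 0.86, 1.16 and 0.99 FPKM in FT against 1.81, 1.82 and 1.96 in WT cells, and fell by 0.73 (adjusted p = 0.0136). MYLIP and ABCA1 missed the threshold without WT_1, WT_2 or WT_3 (adjusted p up to 0.0697 and 0.0557). NR1H3 and SREBF1 missed it when any library other than FT_1 was left out (up to 0.126 and 0.114) and in limma (0.154 and 0.0638). NR1H2 alone of the list passed in each fit with a library left out. Without FT_1, 5 of the 6 genes were higher, RXRA among them, and 1 was lower. In that fit 30.6% of all genes were called higher and 31.5% lower. ABCG1 was listed at 0 in 5 libraries and was not tested.

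**Figure D5:**
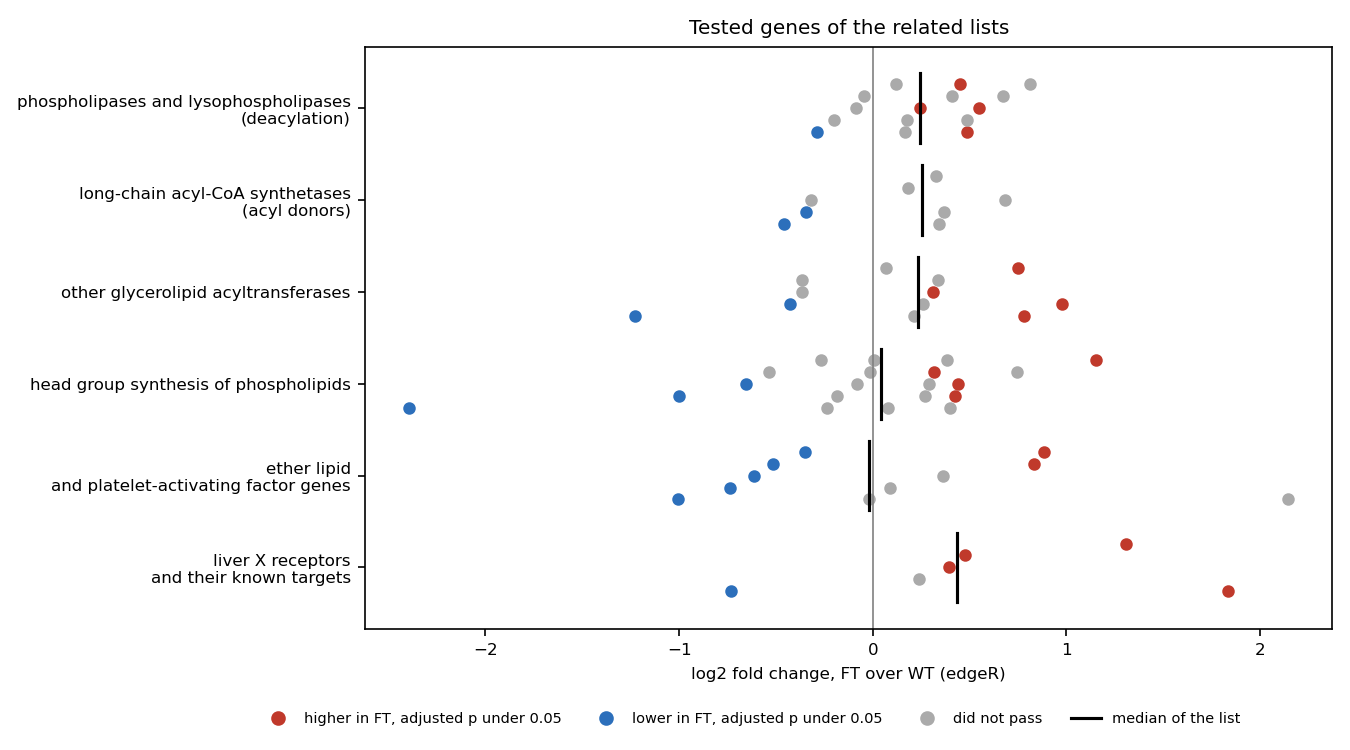
Log2 fold change of FT over WT in edgeR for the 72 tested genes of the 6 related lists, 1 point per gene (vertical offsets only separate points), red where called higher, blue where called lower and grey where not called, with a black line at each list's median. The medians lie between -0.02 for ether lipid genes and 0.44 for liver X receptors and their targets. Without FT_1, which is not drawn here, these 2 medians were -0.313 and 0.465.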

How the data were processed

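Poly(A) RNA of bEFs from 3 FT and 3 WT fetuses, 1 library each, was sequenced with paired-end reads. The methods name HISAT, a UCSC genome, StringTie and edgeR. The submitters' notes also list HISAT2 2.0, StringTie 1.3.0, Bowtie 0.12.2 and the mouse build mm8, with no role given, so that the bovine build of the coordinates is not known from the sources used here. The methods and the sample records name different sequencers. The FPKM values were computed by the authors from gene length and library total, and the raw counts per gene stood beside them in the deposited table, 1 column per library. How shared or overlapping reads were counted is not stated.

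Counts were tested with edgeR 4.0.16 in R 4.3.3 (filterByExpr with a minimum count of 10, TMM scaling, quasi-likelihood test), with Benjamini-Hochberg adjustment over all genes tested, and called at an adjusted p under 0.05. Standard errors were taken from the test statistic. The alternatives were DESeq2 1.42.0, limma 3.58.1 on log2(FPKM + 1) where the average over libraries reached 0.5 FPKM, a pseudocount of 0.1, other scalings, no filter, a smooth trend on gene length (span 0.3), a replicate block and each library left out. Limma without FT_1, and the alternatives for single genes of the related lists, were added after the data were seen. On simulated counts every fit tried recovered all planted differences with few false calls, but not all of the alternatives were tried. The planted differences were larger than that of any of the 10 genes in the full fit. All genes had the same spread there, and no library stood apart as FT_1 does. The simulation therefore does not show how the fits treat small differences or those that depend on FT_1. When a trend on gene length was planted as well, only the fit that removes it kept false calls few. Tables were handled in Python 3.11.15 with pandas 2.3.3, exact permutation tests used SciPy 1.17.1, and figures were drawn with matplotlib 3.10.9.

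The 10 genes, the related lists and the marker lists were chosen with earlier results of these data known. Named genes were the 10 members, the 2 called genes with the smallest p in each direction and the gene with the highest mean FPKM over the 6 libraries of each related list, and all markers but 1, which is not reported here. Symbols were matched as written, or through RefSeq synonyms (assembly ARS-UCD2.0) that are not the symbol of another gene. Markers and genes of the related lists with no entry in the table were not analysed here.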

Additional observations from a re-analysis of the deposited data

How the results depend on the processing

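Of the 10 genes, MBOAT1, MBOAT2 and LPCAT1 kept their direction and their side of the threshold in all 17 alternative fits, whereas the others changed side in at least 1. With library totals alone 2 of the 10 genes were lower. Limma on log2(FPKM + 1) gave 3 higher and 2 lower, and 10 genes of the related lists higher. With a pseudocount of 0.1 it gave 2 lower, without a filter 2 higher and 1744 genes higher in all, and without FT_1, a fit chosen after seeing the data, 3 lower and 5118 genes lower in all. By the rule of the study (log2 fold change beyond 1 or -1 with an unadjusted p under 0.05), 1378 genes were higher and 1208 lower, of the 10 genes 2 were higher, and of the related lists 3 were higher and 3 lower. With each library left out in turn, 1516 to 4215 genes were higher and 1531 to 4337 lower, the lowest counts without WT_1 and the highest without FT_1. Of the 10 genes 1 to 6 were then higher and 1 to 2 lower, and of the related lists 7 to 31 and 9 to 22. LPCAT3, at 0.01 on the log2 scale, had -0.14 with library totals, -0.012 with upper-quartile factors, -0.021 with the length trend removed, -0.21 in limma with and without a filter, -0.22 with a pseudocount of 0.1, and -0.18 to 0.30 with a library left out. PAFAH1B2 had -0.084 in limma, -0.25 in limma without FT_1 and -0.092 to 0.17 with a library left out. The causes were not tested.

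With the replicate number as a block, 1838 genes were higher and 1741 lower, 3 of the 10 genes were higher, and LPCAT3 had a log2 fold change of -0.064. Deviations of libraries with the same number had correlations of 0.00206, -0.0184 and 0.0144, and FT_1 had its highest correlation with WT_2, so that no pairing by number was seen. Of all 32 called genes of the related lists, 15 passed with any 1 library left out, 24 passed in limma and 32 in DESeq2. With 3 libraries a group, a difference that did not pass may have been too small for this design, as the interval from -0.70 to 0.73 for LPCAT3 shows.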
